A study of Mus musculus with 12 samples.

Results

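Zinc finger genes make up the largest family of DNA-binding regulators in the mouse, and their messages were followed here through the last steps of sperm formation. The members were all contigs (annotated transcripts with their own row of counts) whose gene symbol begins with Zfp or Znf and a number, or with Zscan, Zkscan or Zbtb. This rule, which reads names and no measured value, found 178 of the 12114 contigs, from 122 genes. The classical C2H2 finger holds a zinc ion between a pair of cysteines and a pair of histidines, and strings of such fingers read DNA bases. Many of these proteins carry a second domain. KRAB binds the corepressor TRIM28, BTB brings proteins together in pairs and recruits histone deacetylases, and SCAN joins one SCAN protein to another. The family is therefore best known for switching genes off, and KRAB members for keeping mobile elements silent in germ cells and embryos.

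RNA was read by nanopore direct RNA sequencing, in which 1 read stands for 1 poly(A) RNA molecule, from round spermatids (RS) and elongated spermatids (ES) of mice that were wild-type (wt/wt) or carried a catalytically inactive Tent5c allele on both chromosomes (dcat/dcat). TENT5C is a cytoplasmic poly(A) polymerase that lengthens the tails of its target messages. The 4 groups (RS wt/wt, RS dcat/dcat, ES wt/wt and ES dcat/dcat) held 3 libraries each, 12 in all, and each library pooled mRNA from 3 adult mice whose spermatids had been sorted on DNA stain and light scatter. The allele is carried by every cell of the animal, so sorted spermatids came from a testis that was mutant throughout. During elongation transcription ceases and histones give way to protamines, so a message in ES was largely made earlier.

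Libraries held 337287 to 1359427 counted reads, and the shallowest was ES wt/wt replicate 3. Members took 0.558% to 0.630% of the reads in RS and 0.327% to 0.378% in ES. Levels are given as CPM (a contig's reads scaled to a common library size) on the TMM scale, which sets that size from the bulk of the contigs. Reads were not divided by transcript length, so levels of different genes are not compared. Changes are log2 differences from edgeR's quasi-likelihood test over all 11831 contigs tested. The test gives no standard error (SE), so the SE printed is the absolute change divided by the square root of the test's F. A contig was called at a Benjamini-Hochberg adjusted p (q) of at most 0.05. Of the members 174 contigs (119 genes) were tested, and the other 4, another contig of Zfp37 and the contigs of Zfp346, Zfp386 and Zfp759, had too few reads. Members were thinly read, with a median of 136 reads per contig over all libraries against 216 for all contigs, and the sorted cells were not free of other types. Contigs of 6 Leydig cell markers, which mark the hormone-making cells between the tubules, summed to 15.0 to 45.5 CPM in RS and 255 to 1015 CPM in ES, and those of 6 Sertoli cell markers, the nurse cells of the tubule, to 6.41 to 39.6 CPM in RS and 215 to 462 CPM in ES. All 7 contigs of each list rose in both genotypes, and their part in the changes below was not tested. The remaining 6 Leydig and 8 Sertoli markers listed had no contig in the table. Among the Leydig markers read were Insl3 and Ptgds, whose tails the paper reports to depend on TENT5C in ES as well as in Leydig cells. Meiotic spermatocyte markers summed to 1366 to 1584 CPM in RS and 1104 to 1342 CPM in ES, with 7 of 25 contigs called lower and 3 higher in wt/wt. Round spermatid markers had 6 of 14 contigs called lower and 2 higher in wt/wt, and 5 lower and 2 higher in dcat/dcat. Elongated spermatid markers rose in 22 of 25 contigs in wt/wt and in 23 of 25 in dcat/dcat.

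The name of a gene was checked against its sequence. Of 161 member contigs with a coding sequence in the GENCODE annotation of GRCm38, 144 (89.4%) held at least 1 C2H2 pattern, against 102 of 10070 other coding contigs (1.01%). The members had a median of 6 such fingers, 54 contigs had 10 or more, and the most was 27, in Zfp646 and Zfp423. A further 17 coding contigs had none. Some of these are short transcripts cut off before the fingers, and some belong to genes that carry the name for another reason: Zfp185 is a LIM-domain protein of the actin cytoskeleton, Zfp36l1 has CCCH fingers that bind AU-rich RNA and promote its decay, and Zbtb8os is named for its place on the strand opposite a BTB gene and encodes archease, a partner of the tRNA ligase. By name the members were 146 Zfp, 16 Zbtb, 11 Zscan and 5 Zkscan contigs. Chromosome 7 held 40 of the 178 (22.5%), against 7.68% of all annotated contigs.

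The promoters of 2 members that rose and 2 that fell in elongated spermatids in both genotypes are shown here, since promoters are where the transcription of round spermatids begins. They are 300-base windows of RefSeq on GRCm38.p6 around the annotated start, written 5′ to 3′ along the gene's strand, for the highest-ranked named contigs whose own start lies in the window. Capitals mark CCAAT, the box bound by NF-Y, on either strand (ATTGG on the other). TGACG, a core letter run of the cAMP response element used by the spermatid activator CREM, was searched for on both strands in the same windows and was not in any of these 4. Zfp185 lies at chrX:72987089-72987388 (+) and Zfp664 at chr5:124862455-124862754 (+), and both rose. Zfp39 lies at chr11:58904176-58904475 (−) and Zbtb32 at chr7:30592893-30593192 (−), and both fell.
Zfp185: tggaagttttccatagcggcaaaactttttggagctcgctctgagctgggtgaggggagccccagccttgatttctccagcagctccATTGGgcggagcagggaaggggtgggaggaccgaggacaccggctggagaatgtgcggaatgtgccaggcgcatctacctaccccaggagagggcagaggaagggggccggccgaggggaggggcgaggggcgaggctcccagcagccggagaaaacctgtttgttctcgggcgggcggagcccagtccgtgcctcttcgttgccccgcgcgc
Zfp664: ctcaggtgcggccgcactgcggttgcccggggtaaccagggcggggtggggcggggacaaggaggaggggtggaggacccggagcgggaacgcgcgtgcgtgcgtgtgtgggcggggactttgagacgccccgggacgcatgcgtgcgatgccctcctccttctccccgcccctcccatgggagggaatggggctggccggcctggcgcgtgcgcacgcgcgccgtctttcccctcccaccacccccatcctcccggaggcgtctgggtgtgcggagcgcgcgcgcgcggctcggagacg
Zfp39: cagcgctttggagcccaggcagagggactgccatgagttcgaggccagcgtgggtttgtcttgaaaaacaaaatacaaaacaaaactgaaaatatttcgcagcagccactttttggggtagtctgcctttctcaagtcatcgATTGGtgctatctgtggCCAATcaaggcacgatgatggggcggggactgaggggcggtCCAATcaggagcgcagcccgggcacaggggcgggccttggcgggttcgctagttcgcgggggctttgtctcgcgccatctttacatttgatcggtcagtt
Zbtb32: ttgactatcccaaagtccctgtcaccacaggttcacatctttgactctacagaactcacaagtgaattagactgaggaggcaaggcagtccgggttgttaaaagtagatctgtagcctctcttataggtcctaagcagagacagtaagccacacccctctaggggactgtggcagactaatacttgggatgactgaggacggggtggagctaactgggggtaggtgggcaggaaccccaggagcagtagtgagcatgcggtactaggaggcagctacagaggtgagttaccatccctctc
Zfp39 held 3 CCAAT boxes, Zfp185 held 1 and the other two held none. CpG pairs, frequent in promoters that stay unmethylated, numbered 39 in Zfp664, 20 in Zfp185, 18 in Zfp39 and 3 in Zbtb32. Over the 84 windows that hold the start of a tested member, CCAAT was in 36 (42.9%) and TGACG in 29 (34.5%), against 37.4% and 20.8% of all 32851 windows, and the median number of CpG pairs was 17.5 against 7. The 32851 windows were not limited to genes read in spermatids, as the members were. Windows of all tested contigs were not counted, so a like background is not given. For contigs called higher in both genotypes 4 of 7 windows held CCAAT and 2 held TGACG. For those called lower in both, 7 of 11 held CCAAT and 3 held TGACG.

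The comparison of ES with RS asks which messages of the store are kept and which are lost as spermatids elongate. Among the zinc finger messages 28 contigs fell and 19 rose in wt/wt, Zfp706 ranked first among the rises and Zfp39 first among the falls, and most members were not called. In wt/wt 47 of 174 members were called (27.0%, against 40.3% of all contigs tested). Of these 19 rose (10.9%) and 28 fell (16.1%), against 23.8% of all contigs called higher and 16.5% called lower. In dcat/dcat 57 members were called (32.8%, background 41.0%), of which 24 rose (13.8%) and 33 fell (19.0%), against 24.0% and 16.9%. In this fit the share that fell was near the background and the share that rose was below it. These shares are not matched for depth. Among the 27 members with at least 10 counts in every library, 8 rose in wt/wt, and the background at that depth is not given. With the replicate number as a block, 46 members fell in wt/wt (26.4%, background 24.4%) and 20 rose (11.5%, background 27.2%). In dcat/dcat 48 then fell (27.6%, background 23.9%) and 26 rose (14.9%, background 28.0%). The 28 wt/wt falls were 11 without ES wt/wt replicate 1 and 12 without ES wt/wt replicate 2, while the rises stayed between 17 and 20 with any library left out.

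Without a threshold on q, ES and RS libraries did not overlap for 77 members in wt/wt (44.3%, background 53.3%), 19 of them higher in ES (background 25.9%) and 58 lower (33.3%, background 27.3%). In dcat/dcat there were 83 (47.7%, background 50.9%), 24 higher (background 25.7%) and 59 lower (33.9%, background 25.2%). At an unadjusted p under 0.05 the test marked 65 members in wt/wt (37.4%, background 49.0%) and 80 in dcat/dcat (46.0%, background 49.8%).

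The median change of the members was −0.58 (log2) in wt/wt, against −0.24 for all contigs tested, and −0.52 against −0.18 in dcat/dcat. In wt/wt 127 of 174 members lay below 0, and in dcat/dcat 129. For the 27 members with at least 10 counts in every library the median was −0.18 in wt/wt and −0.00705 in dcat/dcat. With total counts in place of TMM the median of all contigs moved to −0.96 in wt/wt and −0.85 in dcat/dcat and that of the members to −1.30 and −1.18, and 95 and 87 members were then called lower and 10 and 9 higher. The shares of all contigs called by total counts, and the median of all contigs at 10 counts, are not given beside these. Changes below are on the TMM scale and thus relative to the bulk of the contigs. In such bulk samples a lower level from fewer cells holding a message cannot be told apart from less of it per cell.

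**Figure D1:**
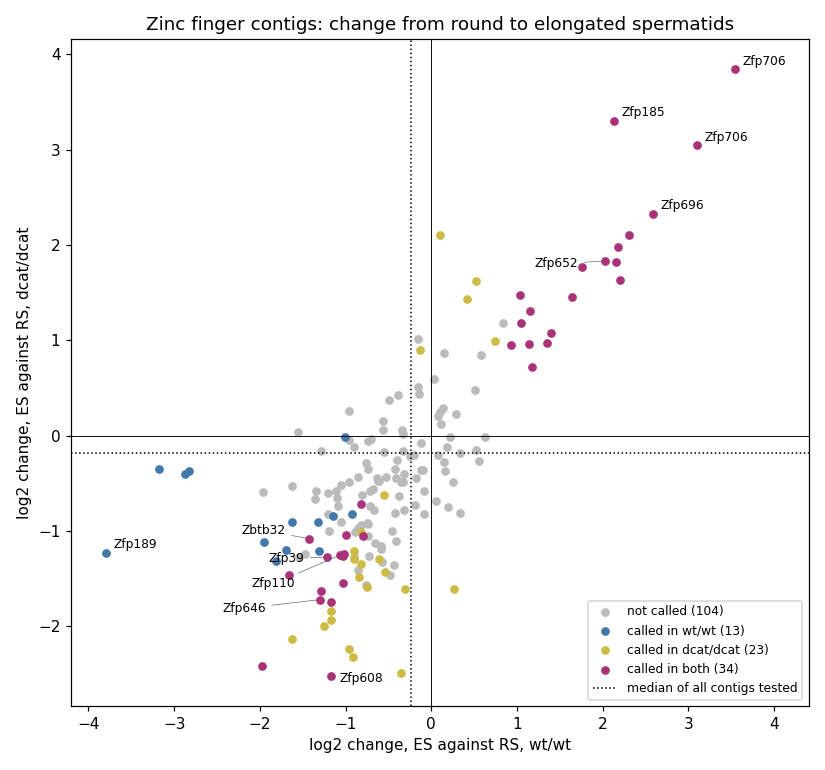
Log2 change from RS to ES of the 174 tested zinc finger contigs in wt/wt (horizontal axis) and dcat/dcat (vertical axis), coloured by where q was at most 0.05, with dotted lines at the median of all contigs tested. The cloud sits below and left of 0, 34 contigs were called in both genotypes, and 2 contigs of Zfp706 stand farthest out at the upper right.

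Every contig called in both genotypes was called in the same direction. There were 19 rises (10.9% of members, background 21.7%) and 15 falls (8.62%, background 11.4%). All 19 wt/wt rises were among the dcat/dcat rises, which had 5 more, while 13 falls were called only in wt/wt and 18 only in dcat/dcat. Whether those falls differ between genotypes is the interaction test given further on, which called none.

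Zfp706, a very small protein of 76 residues with 1 finger, had the member contig with the highest mean CPM over all libraries. Its short contig ENSMUST00000226671, of 447 bases in 4 exons at chr15:37000814-37007773 (−, GRCm38), stood at 16.6, 40.5 and 66.8 CPM in RS wt/wt and at 408, 358 and 314 CPM in ES wt/wt. In RS dcat/dcat it stood at 28.8, 43.3 and 55.2 CPM and in ES dcat/dcat at 415, 337 and 312 CPM. No ES library came near any RS library in either genotype. The log2 change was 3.10 ± 0.37 (SE, q = 1.5e-05) in wt/wt and 3.05 ± 0.37 (q = 2.1e-05) in dcat/dcat. A longer contig of 4417 bases with the same coding length, which ends farther downstream, rose by less, from 59.4 ± 4.23 to 199.9 ± 48.0 CPM in wt/wt (SD, n = 3; log2 change 1.76 ± 0.21, q = 1.6e-05). The remaining contig, ENSMUST00000226453, rose from 1.66 to 3.57 CPM in RS wt/wt to 14.8 to 49.4 CPM in ES wt/wt (log2 change 3.54 ± 0.60). Reads of 1 gene can be placed on any contig that shares their bases, so splits between contigs are uncertain. Summed over the gene, the change was 2.61 in wt/wt and 2.62 in dcat/dcat.

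The other named risers were taken in the order of their wt/wt q among contigs called in both genotypes with no overlap between stages. Zfp696, a single-exon gene with 9 fingers on chromosome 7, stood at 5.0, 3.6 and 4.1 CPM in RS wt/wt and at 29.6, 32.3 and 14.1 CPM in ES wt/wt (log2 change 2.59 ± 0.47, q = 0.00053). It was at 9.99 to 28.7 CPM in ES dcat/dcat, with a change of 2.33 ± 0.50 (q = 0.0018). Every RS library of Zfp696 lay at or near the level of a few reads.

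Zfp185, the LIM-domain member, stood at 5.8, 4.8 and 8.3 CPM in RS wt/wt and at 35.9, 28.5 and 21.2 CPM in ES wt/wt, a log2 change of 2.13 ± 0.39 (q = 0.00059). In dcat/dcat it went from 4.3, 1.3 and 1.6 CPM to 30.1, 19.97 and 25.3 CPM, a change of 3.30 ± 0.47 (q = 8.1e-05). It rose beside the Leydig and Sertoli markers, and whether its reads came from spermatids was not tested. Zfp652, a C2H2 repressor, was seen as a transcript annotated for nonsense-mediated decay, at 19.9, 14.3 and 21.3 CPM in RS wt/wt and at 116, 43.8 and 70.6 CPM in ES wt/wt (log2 change 2.02 ± 0.37, q = 0.0006). In dcat/dcat its change was 1.83 ± 0.38 (q = 0.0015).

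Zfp664, with 9 fingers, rose from 7.51 ± 5.29 to 36.6 ± 5.09 CPM in wt/wt (SD, n = 3; log2 change 2.16 ± 0.43) and by 1.82 ± 0.43 in dcat/dcat. Zfp704 rose by 2.20 ± 0.52 in wt/wt and by 1.64 ± 0.46 in dcat/dcat, and Zfp367 by 1.15 ± 0.26 and 1.31 ± 0.26. Retained-intron transcripts rose for 2 nearby genes on chromosome 7: the Zfp974 contig stood at 78.1, 72.7 and 84.6 CPM in RS wt/wt and at 243, 169 and 208 CPM in ES wt/wt (log2 change 1.39 ± 0.30, q = 0.0019), and the Zfp60 contig changed by 1.64 ± 0.41 (q = 0.005). These 2 contigs hold an unspliced stretch and would not give the full protein. In dcat/dcat the Zfp974 contig spread widely in ES, at 260, 137 and 92.9 CPM, and its call was lost without ES dcat/dcat replicate 1 (0.58, q = 0.075). With total counts in place of TMM, Zfp367, Zfp60 and Zfp474 were not called in either genotype, nor Zfp704 and Zfp974 in dcat/dcat, though each kept a value above 0. The other tested Zfp974 contig, which is protein coding, changed by −1.29 in wt/wt (q = 0.13) and −0.16 in dcat/dcat (q = 0.87).

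**Figure D2:**
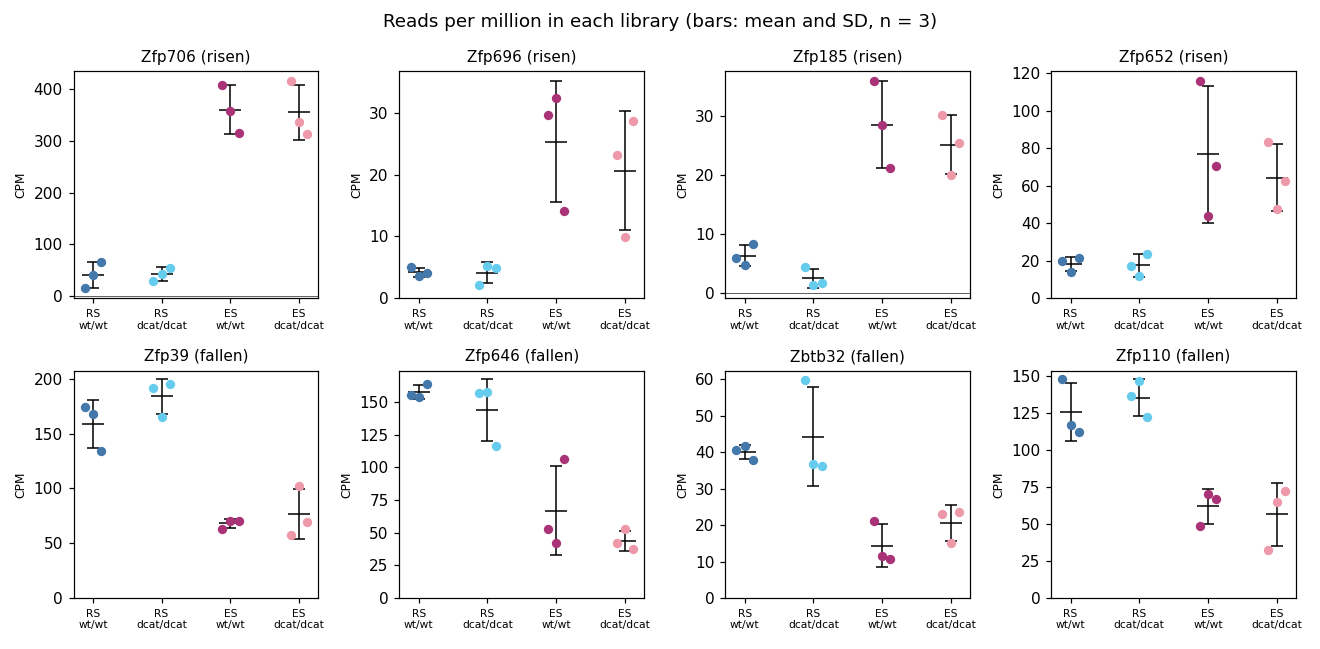
CPM (TMM scale, axes from 0) of the 4 highest-ranked risen and 4 highest-ranked fallen contigs in each of the 12 libraries, with the mean and SD of 3 libraries per group. In every panel the RS and ES points of a genotype do not overlap, as with Zfp706 at 16.6 to 66.8 CPM in RS wt/wt and 314 to 408 CPM in ES wt/wt.

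Among the fallers Zfp39, with 12 fingers at chr11:58888153-58904225 (−), was among the 5 contigs with the most reads and stood at 174, 168 and 134 CPM in RS wt/wt and at 63.4, 70.4 and 70.6 CPM in ES wt/wt. Its log2 change was −1.22 ± 0.23 (q = 0.00062) in wt/wt and −1.27 ± 0.22 (q = 0.00038) in dcat/dcat, where it went from 165 to 195 CPM down to 58.0 to 102 CPM. All 6 RS libraries lay above all 6 ES libraries. Zfp646, a protein of 1788 residues with 27 fingers at chr7:127877701-127885996 (+), stood at 155, 154 and 164 CPM in RS wt/wt and at 52.8, 41.8 and 106 CPM in ES wt/wt (log2 change −1.30 ± 0.28, q = 0.0022). In dcat/dcat it fell by 1.72 ± 0.29 on the log2 scale (q = 0.00033).

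Zfp110, also called NRIF and known to bind the p75 neurotrophin receptor, stood at 148, 117 and 112 CPM in RS wt/wt and at 48.6, 70.4 and 67.1 CPM in ES wt/wt (log2 change −1.02 ± 0.27, q = 0.0071; −1.24 ± 0.27 in dcat/dcat). Zbtb32, a BTB repressor first studied in lymphocytes, stood at 40.7, 41.7 and 37.8 CPM in RS wt/wt and at 21.1, 11.4 and 10.6 CPM in ES wt/wt (log2 change −1.43 ± 0.35, q = 0.0047; −1.08 ± 0.33 in dcat/dcat). In both genes every RS library was above every ES library of its genotype. Zfp105 changed by −1.03 ± 0.29 in wt/wt and −1.55 ± 0.30 in dcat/dcat, Zbtb3 by −0.999 ± 0.295 and −1.04 ± 0.29, and Zfp956 by −1.03 ± 0.31 and −1.26 ± 0.31. Zfp423, a 27-finger partner of EBF factors, changed by −1.07 ± 0.32 and −1.25 ± 0.32, and Zfp608 by −1.18 ± 0.36 and −2.52 ± 0.42, though DESeq2 did not call Zfp608 in wt/wt (q = 0.10). Several of these wt/wt calls were not kept when 1 library was left out, a fit that also has fewer libraries to test with. Without ES wt/wt replicate 1 the changes of Zfp110 (−0.78, q = 0.062), Zfp105 (−0.90, q = 0.063), Zbtb3 (−0.83, q = 0.084) and Zfp608 (−1.07, q = 0.093) missed the threshold. Without ES wt/wt replicate 2 those of Zbtb32 (−1.16, q = 0.055), Zfp105 (−0.77, q = 0.10), Zbtb3 (−0.81, q = 0.099), Zfp423 (−0.82, q = 0.12), Zfp956 (−0.90, q = 0.11) and Zfp608 (−0.99, q = 0.14) did. Zfp956 also missed it without ES wt/wt replicate 3 (−0.83, q = 0.072) or RS wt/wt replicate 1 (−0.84, q = 0.061), and Zbtb32 missed it in dcat/dcat without RS dcat/dcat replicate 1 (−0.80, q = 0.075) or ES dcat/dcat replicate 2 (−0.88, q = 0.074). The calls of Zfp39 and Zfp646 held with any library left out.

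The members that did not pass the test include some with many reads. Zfp654 stood at 132 ± 13.1 CPM in RS wt/wt and 142 ± 30.1 CPM in ES wt/wt (SD, n = 3), a log2 change of 0.12 ± 0.20 (q = 0.67), and at 0.12 ± 0.20 in dcat/dcat. Zfp91, a ubiquitin ligase of the NF-kappa-B pathway, stood at 99.9 ± 13.99 CPM in RS wt/wt and 111 ± 11.6 CPM in ES wt/wt (log2 change 0.14 ± 0.22, q = 0.62). With total counts in place of TMM the direction turned in wt/wt, to −0.60 for Zfp654 and −0.57 for Zfp91, and both were then called lower (q = 0.024 and 0.039).

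By domain, members differed in how many rose. None of the 16 Zbtb contigs rose in either genotype, and 6 fell in wt/wt and 4 in dcat/dcat, with a median change of −0.98 and −0.69. Of 16 Zscan and Zkscan contigs, 0 rose and 2 fell in wt/wt, with a median of −0.82. In dcat/dcat 1 rose and 4 fell. Of 35 Zfp contigs with a KRAB pattern, a simple search that misses divergent KRAB boxes and also matched 1.03% of other coding contigs, 2 rose and 6 fell in wt/wt (median −0.74), and 2 rose and 8 fell in dcat/dcat (median −0.77). Of 87 coding Zfp contigs without it, 12 rose and 11 fell in wt/wt (median −0.42), and 14 rose and 16 fell in dcat/dcat (median −0.43). Of the 14 coding risers in wt/wt, 12 were Zfp contigs without a KRAB pattern. That class held 87 of the 153 coding contigs tested and all 3 Zfp706 contigs. No test of a difference between classes was run.

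The calls were counted by the number of fingers as well. The background over all contigs tested, for wt/wt, was 23.8% for rises and 16.5% for falls. For dcat/dcat the rises made up 24.0% and the falls 16.9%. These background shares are not matched for depth. Of 52 tested contigs with 10 or more fingers, 0 rose in wt/wt and 9 fell (median −0.69), and 0 rose in dcat/dcat and 15 fell (median −0.83). Of the 14 coding contigs with 0 fingers, 4 rose in wt/wt and 5 in dcat/dcat, and 0 fell, with medians of 0.16 and 0.35. Those with 1 to 3 fingers (36) and 4 to 9 fingers (51) each held 5 rises in wt/wt, with 7 and 9 falls. Across the 153 coding contigs tested, the number of fingers and the log2 change correlated at −0.19 by Pearson's r and −0.13 by Spearman's rho for wt/wt, with −0.27 and −0.25 for dcat/dcat. These points share libraries, genes and depth and are given as a description. Contig length had an r of 0.10 and 0.03 with the change, and mean CPM over all libraries had an r of 0.30 and 0.24. Among the 23 contigs outside the rule with 4 or more fingers, 2 rose and 2 fell in each genotype, and the median change was −0.50 in wt/wt and −0.39 in dcat/dcat.

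**Figure D3:**
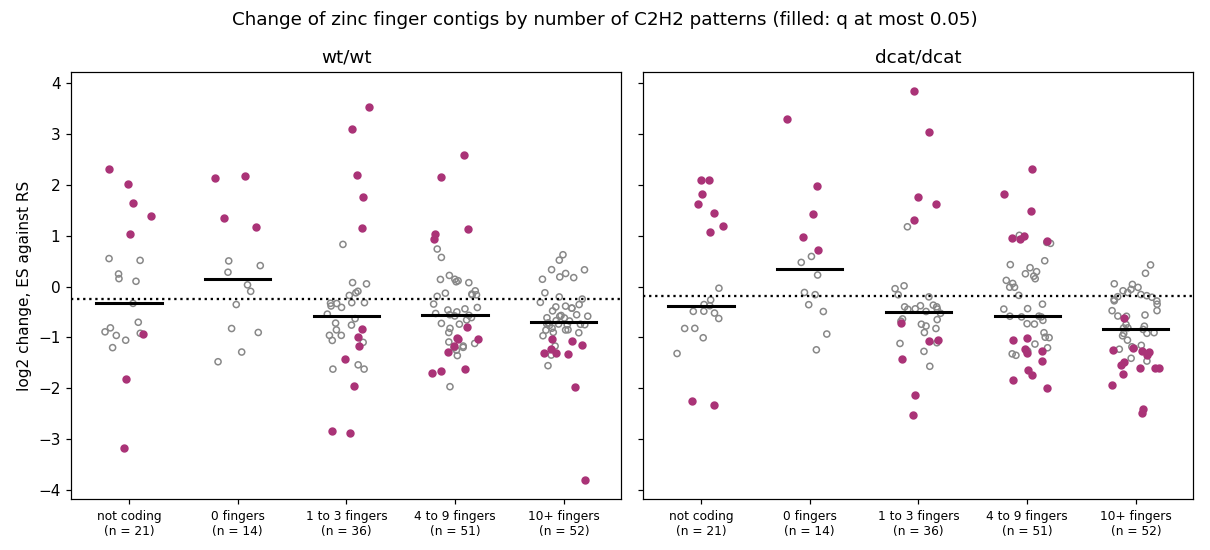
Log2 change from RS to ES of each tested zinc finger contig by the number of C2H2 patterns in its coding sequence, in wt/wt (left) and dcat/dcat (right), with the class median as a bar, filled points at q of at most 0.05 and a dotted line at the median of all contigs tested. No filled point lies above 0 among the 52 contigs with 10 or more fingers, and the 14 coding contigs without a finger have the highest median.

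Transcripts that are not protein coding made up 21 of the tested members, and 5 of them rose and 3 fell in wt/wt. Of all 1598 annotated contigs of this kind, 490 rose and 131 fell. Of 7 retained-intron contigs 3 rose and 1 fell in wt/wt, against 128 and 46 of all 495 such contigs. Of 153 protein-coding member contigs 14 rose and 25 fell, against 2084 and 1747 of all 9506. Rises were thus a smaller share among coding members than among coding contigs at large.

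Added over all tested members, the level hardly moved on the TMM scale. The sum was 4776, 4449 and 4459 CPM in RS wt/wt, 4688, 4555 and 4714 CPM in RS dcat/dcat, 4410, 4508 and 4449 CPM in ES wt/wt, and 4299, 4449 and 4528 CPM in ES dcat/dcat. The RS and ES ranges overlap in wt/wt and do not in dcat/dcat. The 3 Zfp706 contigs gave 103 ± 28.4 CPM of it in RS wt/wt and 591 ± 75.1 CPM in ES wt/wt (SD, n = 3). Without them the sum was 4458 ± 212 CPM in RS wt/wt and 3864 ± 97.5 CPM in ES wt/wt, and every RS library lay above every ES library in both genotypes. The 35 Zfp contigs with a KRAB pattern summed to 887 to 949 CPM in RS wt/wt and 585 to 685 CPM in ES wt/wt, and to 886 to 1004 CPM and 505 to 667 CPM in dcat/dcat. With total counts the sum over all members was 5812 ± 383 CPM in RS wt/wt and 3467 ± 243 CPM in ES wt/wt, so the near-equal sum was seen on the TMM scale and not by total counts.

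**Figure D4:**
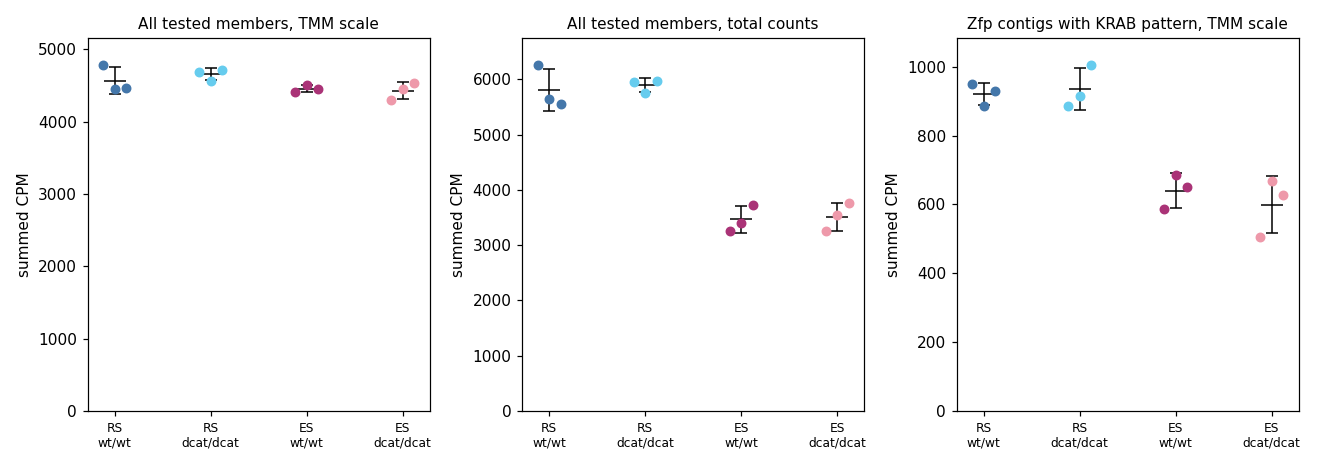
Summed CPM of zinc finger contigs in each of the 12 libraries with the mean and SD of 3 libraries per group, for all 174 tested members on the TMM scale (left) and by total counts (middle), and for the 35 Zfp contigs with a KRAB pattern on the TMM scale (right). The axes start at 0, and RS and ES lie close together at left and apart in the middle and right panels.

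Several genes were read on more than 1 contig. Of 45 such genes with tested contigs, none had a contig called higher and another called lower in the same genotype, and in 38 all contigs changed with the same sign in wt/wt, 30 below 0 and 8 above. Zfp451, a SUMO ligase, had 4 contigs. The full-length coding contig stood at 110, 54.8 and 69.8 CPM in RS wt/wt and at 146, 162 and 141 CPM in ES wt/wt (log2 change 0.93 ± 0.26, q = 0.011), and it changed by 0.95 ± 0.26 in dcat/dcat. By total counts the change was 0.21 and 0.27 and was not called. Its nonsense-mediated decay contig changed by 1.04 ± 0.35 and its retained-intron contig by 2.31 ± 0.58 in wt/wt, and the fourth by 0.51 ± 0.45, which did not pass. Zscan21, a SCAN member, had 5 contigs, all below 0, of which 2 were called lower in each genotype. Its most-read contig varied strongly between replicates, at 123, 57.2 and 42.0 CPM in RS wt/wt, and its wt/wt change of −1.25 ± 0.56 missed the threshold (q = 0.087), while blocking on the replicate number called it (−1.29, q = 0.00035). In dcat/dcat it changed by −1.99 ± 0.58 (q = 0.013), a call lost without RS dcat/dcat replicate 1 (−1.50, q = 0.055), ES dcat/dcat replicate 2 (−1.84, q = 0.053) or ES dcat/dcat replicate 3 (−1.50, q = 0.079). Summed over its contigs the wt/wt change was −1.14 (q = 1.6e-05).

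Genes of the list with known work in germ cells were divided. The list named 17 genes, of which 10 had tested contigs. The 7 without a contig were Zfp59, Zfp42, Zbtb16 (the PLZF of spermatogonial stem cells) and 4 Zscan4 genes, a family of the early embryo. Of 18 contigs 3 rose and 5 fell in each genotype, with a median change of −0.46 in wt/wt and −0.61 in dcat/dcat. Zfp541, which acts with histone deacetylases at the end of meiotic prophase, fell on both contigs, and the one with more reads stood at 98.9, 105 and 73.9 CPM in RS wt/wt and at 44.4, 60.9 and 53.0 CPM in ES wt/wt (log2 change −0.80 ± 0.25, q = 0.018). In dcat/dcat it changed by −1.05 ± 0.25 (q = 0.0038). Its wt/wt call was lost without ES wt/wt replicate 1 (−0.60, q = 0.13), ES wt/wt replicate 3 (−0.77, q = 0.053) or RS wt/wt replicate 2 (−0.70, q = 0.060). The other contig changed by −1.17 ± 0.32 (q = 0.0092), and that call was lost without ES wt/wt replicate 1 (−0.97, q = 0.058) or 2 (−1.06, q = 0.052). Contigs of the meiotic markers went both ways, with 7 of 25 lower and 3 higher in wt/wt and 5 lower and 4 higher in dcat/dcat. How much of the RS level of Zfp541 came from spermatocytes was not tested.

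Zfp474, a testis-enriched gene, rose on both contigs, and the more-read one stood at 39.1, 25.02 and 29.0 CPM in RS wt/wt and at 90.9, 59.0 and 91.8 CPM in ES wt/wt (log2 change 1.35 ± 0.31, q = 0.003; 0.97 ± 0.31 in dcat/dcat, q = 0.022). The dcat/dcat call was lost without ES dcat/dcat replicate 3 (0.81, q = 0.099) or RS dcat/dcat replicate 2 (0.73, q = 0.081). The other contig changed by 1.18 ± 0.26 in wt/wt (q = 0.0025) and 0.72 ± 0.25 in dcat/dcat (q = 0.033). Its dcat/dcat call was lost without RS dcat/dcat replicate 1 (0.72, q = 0.068) or 2 (0.63, q = 0.10), or without ES dcat/dcat replicate 2 (0.72, q = 0.073) or 3 (0.72, q = 0.082). Zfp37 (−0.20 ± 0.37), Zfp35 (−0.40 ± 0.24), Zfp318 (−0.17 ± 0.30), Zfp148 (−0.53 ± 0.58) and Zfp57, a guardian of genomic imprints (−0.31 ± 0.56), did not pass in wt/wt, nor did they in dcat/dcat. By total counts Zfp35 and Zfp318 were called lower in both genotypes and Zfp37 in wt/wt.

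Another list named 18 genes of the family whose proteins act on RNA or other proteins. It was chosen with earlier results of these data known, so its counts are a description only. Zfp36, Zfp36l2, Zfp106, Zfp326 and Zfp638 had no contig, and the contig of Zfp346 had too few reads. Of 20 contigs from 12 genes, 7 rose in wt/wt and 9 in dcat/dcat and none fell in either, and the median change was 0.35 and 0.71. Zfp185 is on this list and on that of germ cell genes. The 7 and 9 of 20 stand beside 23.8% and 24.0% of all contigs called higher, and contigs of 1 gene are not independent. In wt/wt 3 of the 7 were the Zfp706 contigs and 3 were those of Zfp451. The last was Zfp185. In dcat/dcat a second contig of Zfp330 (2.10 ± 0.65, q = 0.018) and Zfp36l1 were added. Zfp36l1, the mRNA-decay factor, stood at 8.3, 7.1 and 7.7 CPM in RS wt/wt and 8.5, 7.6 and 17.7 CPM in ES wt/wt (log2 change 0.41 ± 0.47, q = 0.54). It went from 5.3, 5.2 and 8.2 CPM to 25.5, 12.5 and 15.2 CPM in dcat/dcat (1.43 ± 0.43, q = 0.016), and that call was lost without ES dcat/dcat replicate 1 (1.11, q = 0.086) and by total counts (0.77). Zfp622, a factor of the large ribosomal subunit, changed by 0.83 ± 0.47 (q = 0.17) in wt/wt and 1.18 ± 0.47 (q = 0.059) in dcat/dcat, where the fit with replicate number as a block called it (1.15, q = 0.047). Zfp385a changed by −1.57 ± 0.65 (q = 0.068) in dcat/dcat, and the block called it as well (q = 0.0099). Zfp207 (−0.31 ± 0.54), a spindle protein, Zfp330 (0.28 ± 0.33), a nucleolar protein, Zfp593 (−0.33 ± 0.41), Zfp830 (−0.63 ± 0.29) and Zfp598 (−1.62 ± 1.14), which marks collided ribosomes, did not pass in wt/wt. Zfp598 rested on 2 reads in ES wt/wt.

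The corepressors that KRAB proteins work through were looked at next. The list named 16 genes and 8 were tested, on 14 contigs, of which 0 rose and 3 fell in wt/wt and 0 rose and 2 fell in dcat/dcat, with a median of −0.42 and −0.84. These counts are near the 16.5% and 16.9% of all contigs called lower. Trim28, the direct KRAB partner, went from 251 to 138 CPM in wt/wt (log2 change −0.87 ± 0.21, q = 0.0038) and from 254 to 120 CPM in dcat/dcat (−1.08 ± 0.21). Hdac1, a deacetylase of the same complexes, went from 211 to 88.4 CPM in wt/wt (−1.27 ± 0.25, q = 0.0011). The list summed to 538 to 724 CPM in RS wt/wt and 329 to 399 CPM in ES wt/wt. Of 12 contigs of 6 BTB corepressor genes none was called in either genotype, at a median of −0.23 and 0.03, and the best read, Sin3b, changed by 0.11 ± 0.19. A list of 87 C2H2 genes that the naming rule leaves out, such as the Klf and Prdm genes, had 14 genes with 20 tested contigs, and 1 contig was called, Klf4, at −0.90 ± 0.25 in wt/wt (q = 0.011).

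No zinc finger message passed the threshold between genotypes. Between dcat/dcat and wt/wt, 0 of 174 members were called in RS and 0 in ES, against 0.0% of all contigs in both, and every member had a q near 1. DESeq2 also called 0 members in each. At an unadjusted p under 0.05 there were 3 members in RS (1.72%, background 0.828%) and 8 in ES (4.6%, background 3.01%). Groups did not overlap for 19 members in RS (10.9%, background 5.31%), 8 of them higher in dcat/dcat (4.6%, background 2.55%) and 11 lower (6.32%, background 2.76%), and for 14 in ES (8.05%, background 7.66%), 5 higher (2.87%, background 4.01%) and 9 lower (5.17%, background 3.65%). The median difference was −0.01 in RS and −0.02 in ES on the log2 scale. The interaction of stage and genotype, which asks whether the RS-to-ES change differs between genotypes, called 0 members and 0.0% of all contigs, with 7 members at an unadjusted p under 0.05 (4.02%, background 1.44%).

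The contigs with the smallest unadjusted p are given as values. In RS these were Zfp185, at 5.8, 4.8 and 8.3 CPM in wt/wt and 4.3, 1.3 and 1.6 CPM in dcat/dcat (log2 difference −1.38 ± 0.51), a Zfp474 contig, at 22.4, 19.1 and 30.8 CPM in wt/wt and 39.5, 34.1 and 42.8 CPM in dcat/dcat (0.67 ± 0.25), and a processed transcript of Zfp664 at −0.97 ± 0.43. Each separated the genotypes in RS, with every q near 1. In ES the 3 were Zfp433, Zbtb25 and Zfp189. Zfp433, with 17 fingers, stood at 16.9, 17.1 and 7.1 CPM in wt/wt and at 4.6, 5.0 and 1.7 CPM in dcat/dcat (−1.98 ± 0.62), where the last are 2, 2 and 1 reads. Levels this low are close to what single reads give.

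Zbtb25, a BTB member, had the smallest unadjusted p of the interaction, 0.0038 by edgeR's quasi-likelihood test, with a q near 1. It stood at 27.4, 32.2 and 28.4 CPM in RS wt/wt and at 17.1, 22.3 and 18.1 CPM in RS dcat/dcat, so the mutant was lower. In ES wt/wt it stood at 6.3, 3.8 and 0 CPM, which are 3, 2 and 0 reads, and in ES dcat/dcat at 18.5, 19.97 and 6.8 CPM, so there the mutant was higher. The log2 change from RS to ES was −2.87 ± 0.53 in wt/wt (q = 0.00065) and −0.40 ± 0.43 in dcat/dcat (q = 0.48), and the difference between them was 2.47 ± 0.72. The other tested Zbtb25 contig changed by −2.83 in wt/wt (q = 0.037) and −0.37 in dcat/dcat (q = 0.68). It had 0, 0 and 1 reads in the ES wt/wt libraries.

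Zfp189 had 2 contigs, and ENSMUST00000107696 was singled out after its values were seen. It had 47 reads in RS wt/wt and 1 read in ES wt/wt, a ratio of RS to ES of 16.1 with a 95% counting interval of 2.76 to 651, and 40 and 8 reads in dcat/dcat, a ratio of 2.44 (1.13 to 6.05). The contig ENSMUST00000042964, with 16 fingers, had 55 and 15 reads in wt/wt, a ratio of 1.26 (0.70 to 2.40), and 58 and 5 reads in dcat/dcat, a ratio of 5.67 (2.30 to 18.1). The intervals are exact binomial ones and cover counting error only. Summed over the 2 contigs, the interaction was −0.72 with an unadjusted p of 0.24.

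**Figure D5:**
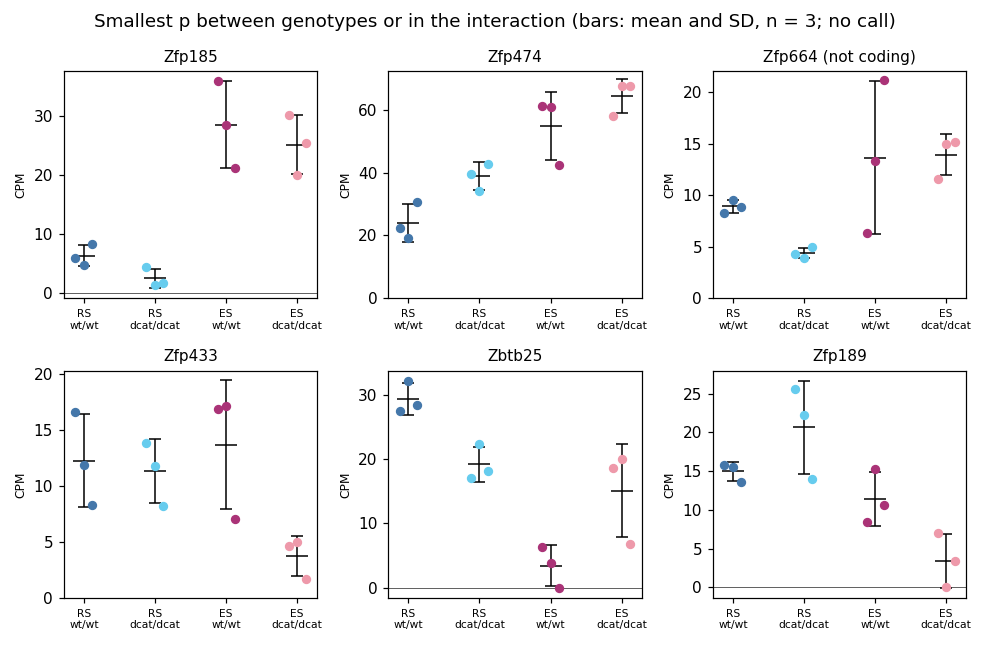
CPM (TMM scale) of the 6 zinc finger contigs with the smallest unadjusted p between genotypes in RS (top row), in ES (bottom row) or in the interaction, in each of the 12 libraries with the mean and SD of 3 libraries per group. None was called, and Zbtb25 is the contig whose genotypes separate in opposite directions in RS and ES.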

How the data were processed

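The deposited table holds counts of nanopore direct RNA reads per contig. Per the methods and the labels, the authors aligned reads with minimap2 to GENCODE transcripts on mm10, sorted them with SAMtools, kept reads whose tail estimate passed, and filtered out thinly read contigs. The minimap2 version in the submitters' processing notes is 2.20-r1061. The authors' comparison columns (fold change, p-value) were not used, only their gene symbols.

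Here edgeR 4.0.16 (R 4.3.3) fitted 1 mean per group over all 12 libraries with TMM scaling, on contigs reaching 10 counts in 2 or more libraries of a group, and Benjamini-Hochberg q of at most 0.05 over 11831 contigs was a call. The fit was run on simulated counts in which a small set of contigs was changed, equally up and down, in ES wt/wt only. Far fewer contigs changed there than were called here, so the simulation does not test the scaling for these data. No libraries were identical. Per the study's reporting summary the pools of a genotype came from different mice, RS and ES were taken from the same animals, and each sort held a mouse of both genotypes. That a replicate number marks the same pool or sorts across groups is not stated.

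Members and lists were chosen with earlier results of these data known. Named contigs were up to 10 called each way in both genotypes without overlap, and the 5 with the highest mean CPM over all libraries. To these came the 3 smallest p per genotype comparison, and the most-read contig of each gene on the germ cell and RNA or protein lists. No gene had contigs called both ways. Other contigs are named to complete a gene or a short count. In place of the planned protein table, which was not used here, coding sequences were translated from GENCODE vM21 on GRCm38, which held all 178 members, 2 under another name. Of 119 tested genes 95 matched a RefSeq promoter by symbol.

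Same-numbered libraries deviated together (every Pearson r above 0.1) between RS wt/wt and RS dcat/dcat (0.38 to 0.70) and between RS and ES in dcat/dcat (0.25 to 0.52), but not between RS and ES in wt/wt (lowest −0.09) or between the ES groups (lowest 0.03). Alternatives were other scalings and filters, DESeq2, sums by gene symbol, the replicate block and leaving out each library.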

Additional observations from a re-analysis of the deposited data

Results flagged for a closer look

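Zbtb25 stood out because the genotypes separated in opposite directions at the 2 stages: all 3 RS dcat/dcat libraries (17.1 to 22.3 CPM) lay below all RS wt/wt libraries (27.4 to 32.2 CPM), and all 3 ES dcat/dcat libraries (6.8 to 19.97 CPM) lay above all ES wt/wt libraries (0 to 6.3 CPM). The interaction was 2.47 on the log2 scale and was not called over all contigs (q near 1). It stayed between 2.10 and 3.09 with any library left out, and ES wt/wt held 5 reads of this contig in all.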

How the results depend on the processing

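Depth limited these results: at 10 counts in every library 27 member contigs were left, with 8 higher and 10 lower in wt/wt, 7 and 9 in dcat/dcat, and medians of −0.18 and −0.00705. Total counts in place of TMM gave 10 higher and 95 lower in wt/wt, 9 and 87 in dcat/dcat, medians of −1.30 and −1.18, and summed levels of 5812 (RS wt/wt), 5891 (RS dcat/dcat), 3467 (ES wt/wt) and 3517 CPM (ES dcat/dcat). The medians of all contigs moved with them, to −0.96 and −0.85. DESeq2 called 17 members lower in wt/wt. With the replicate block 46 were lower in wt/wt and 48 in dcat/dcat. The block ended no named call and added 3, Zfp622 and Zfp385a in dcat/dcat and Zscan21 in wt/wt (q = 0.00035). Leaving out 1 library gave 17 to 20 higher and 11 to 30 lower in wt/wt, 17 to 26 and 23 to 34 in dcat/dcat, and 0 in each genotype comparison and the interaction. Apart from the replicate block, the shares of all contigs called in these alternatives are not given, so their counts lack a background. Whether the share of rises stays below the background at 10 counts was not tested. Of 50 named calls 26 held under every alternative run and 35 in every fit without 1 library, and none reversed. A class from the symbol alone was not run, since it cannot name KRAB.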
